A study of Homo sapiens with 33 samples.

Results

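EZH2 RNA fragments outside protein-coding genes are stretches of RNA that were enriched with EZH2 in K562 cells and that map to long non-coding RNA (lncRNA) genes or to sequence between genes. Members were chosen by position alone. Of the 900 fragments in the deposited list, 396 (44%, 95% Wilson interval 40.8 to 47.3) had under 50% of their length covered by GENCODE 44 spans of protein-coding genes, whichever the strand. They were separated into 289 fragments with at least 50% of their length in another annotated gene, called fragments in non-coding genes here, and 107 intergenic fragments. The threshold mattered little, since 394 members had no base in a protein-coding gene. Nearest to it on the inside were intergenic fragments at OR8B4, with 18.8% of the length in that gene, and at EPGN, with 17.3%. Just outside it was a fragment at KCNJ16, with 51.6% in that gene and 176 nuclear and 5 cytoplasmic reads. The fragments of LEVER, the non-coding RNA upstream of the β-globin genes after which the study is named, lie in GENCODE 44 spans of HBE1 and OR51B5 and were therefore not members.

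K562 is a human erythroleukemia cell line, and the cells were wild type in all of the libraries used here. There were 4 groups of 1 library each, namely the cytoplasmic fraction, the nuclear fraction, and the PolyA+ and PolyA- parts of the nuclear fraction. Nuclei were purified through a sucrose cushion, and oligo(dT) beads then divided nuclear RNA into the bound polyA+ and the unbound polyA- fraction, so the 3 nuclear libraries share their source. Fragments had been defined elsewhere in the study by RNA immunoprecipitation sequencing (RIP-seq) of EZH2 over IgG in the same line. In the paper's description, the fraction counts have no part in that definition. The paper reports more fragments than the deposited list holds, and how that list was drawn up is not given in the sources used here. A further library, the RIP-seq input RNA, gave an expression level for each annotated gene. As there were no replicates, no difference below has a replicate error. Intervals of ratios cover counting error of reads only, and intervals of shares take fragments as independent.

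EZH2 is the catalytic subunit of the Polycomb repressive complex PRC2, which methylates histone H3 at K27 and keeps genes silent. PRC2 binds many RNAs in the nucleus, has been described as favouring G-rich sequence, and can be held away from chromatin by RNA that is still being transcribed. lncRNA genes give rise to spliced transcripts much like mRNAs, but their introns exist mainly as short-lived RNA at the site of transcription. Such nascent RNA carries no poly(A) tail, whereas a finished transcript usually does.

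The following 150-base windows are shown because they are the G+A-richest stretches within the densest member of some of the host genes and within intergenic members described below. Each was read from the GRCh38 reference, 5′ to 3′, on the strand of the host or, between genes, on the strand that gave the higher share. Capitals mark the longest run of G and A alone. The window of ENSG00000259560 is chr15:87410926-87411075 (minus strand, 73.3% G+A). The window of LINC01287 is chr7:153408396-153408545 (minus, 74%), that of LINC01033 is chr5:54325793-54325942 (plus, 71.3%), and that of MGC4859 is chr7:10736984-10737133 (minus, 54%). All 4 lie in lncRNA genes. The fragment of LINC01287 that holds the window is 37.4% exonic, and the other 3 have no exonic base. The windows in intergenic members are chr7:145852746-145852895 (minus, 70.7%) and chr4:74316688-74316837 (plus, 66.7%). The member on chromosome 4 overlaps the end of EPGN, and most of its window lies inside the span of that gene. Its label, intergenic and beside EPGN, names the class of the member and not the place of the window.
ENSG00000259560: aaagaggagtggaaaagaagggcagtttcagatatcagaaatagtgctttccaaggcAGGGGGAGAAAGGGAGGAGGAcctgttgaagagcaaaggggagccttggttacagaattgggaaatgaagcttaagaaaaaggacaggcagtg
LINC01287: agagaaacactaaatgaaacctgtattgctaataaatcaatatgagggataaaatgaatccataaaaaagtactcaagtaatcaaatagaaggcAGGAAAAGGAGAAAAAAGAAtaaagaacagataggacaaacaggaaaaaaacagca
LINC01033: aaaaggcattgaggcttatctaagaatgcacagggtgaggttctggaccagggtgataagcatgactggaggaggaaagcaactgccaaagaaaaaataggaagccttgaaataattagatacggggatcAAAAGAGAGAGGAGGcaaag
MGC4859: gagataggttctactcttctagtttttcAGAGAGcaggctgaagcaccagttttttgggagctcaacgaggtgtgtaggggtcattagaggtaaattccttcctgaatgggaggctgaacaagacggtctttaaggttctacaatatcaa
Intergenic, first fragment of the chromosome 7 run: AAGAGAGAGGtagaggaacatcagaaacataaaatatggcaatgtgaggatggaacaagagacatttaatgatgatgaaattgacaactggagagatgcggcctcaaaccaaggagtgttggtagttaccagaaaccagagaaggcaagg
Intergenic, beside EPGN: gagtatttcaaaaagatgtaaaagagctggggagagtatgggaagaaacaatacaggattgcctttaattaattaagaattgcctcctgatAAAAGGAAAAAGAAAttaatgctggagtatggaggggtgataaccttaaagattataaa
The longest G/A runs in these windows ranged from 6 bases in MGC4859 to 21 bases in ENSG00000259560. A longer fragment offers more windows to choose from, so the shares are not comparable between fragments of different length. The fragment of MGC4859 is 335 bp long and that of ENSG00000259560 is 5900 bp long.

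The cell line was checked in the input RNA by its marker genes. All 11 erythroid markers had at least 1 FPKM (reads scaled to transcript length and library size), from 1.28 for EPOR to 218 for HBG2, as had the 4 genes of the leukemia line list, among them BCR and ABL1. Of 12 markers of T cells, B cells, hepatocytes and fibroblasts, 2 reached 1 FPKM, namely CD3D at 6.29 and COL1A2 at 1.25. Over all 900 fragments the libraries held between 7929 reads, in cytoplasmic RNA, and 106051 reads, in polyA- RNA. The files give no library totals, so counts were compared as deposited.

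RNA of the members was counted far more often in the nuclear than in the cytoplasmic library. Members had 57122 nuclear and 3418 cytoplasmic reads in sum, beside 48539 and 4511 reads on the 504 fragments inside protein-coding genes. A member was called higher in a library when it had at least 2 times the reads of the other, with the lower count set to no less than 3 reads. By this rule 342 of the 396 members (86.4%) were higher in the nuclear library, and none was higher in the cytoplasmic library. Of all 900 fragments 88.4% were called nuclear, so the share among members lay close to that background. The call was made for 257 of the fragments in non-coding genes (88.9%, 84.8 to 92.0) and for 85 intergenic fragments (79.4%, 70.8 to 86.0). These intervals take fragments as independent, although many share a host gene or lie near each other. Whether the classes differ was not tested. Intergenic fragments had fewer reads to be called from, with a median of 27 nuclear reads against 59 in non-coding genes, and 14 of them had under 3 nuclear reads. In an exact binomial test on each fragment, Benjamini-Hochberg adjusted over the 900 fragments, 339 members were higher in the nuclear library, beside 88% of all fragments, and 0 in the cytoplasmic library, where an unadjusted p under 0.05 also gave 0. Such a test sets 1 library against another and says nothing of the conditions. The count of calls rests on the unknown library totals. With the libraries scaled to equal sums over all fragments it fell from 342 to 103, and with the median ratio of all fragments set to 1 it fell to 43. In bulk RNA, fewer cells with a transcript and less of it per cell cannot be told apart.

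**Figure D1:**
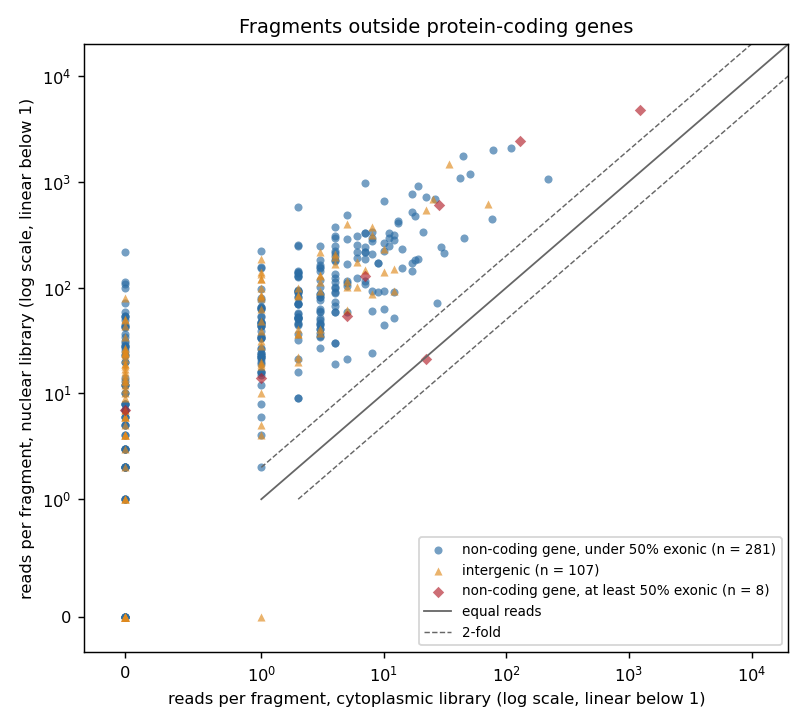
Reads of each of the 396 members in the cytoplasmic library (x axis) and the nuclear library (y axis), both on a log scale that is linear below 1, with 1 point per fragment, coloured by class. The solid line marks equal reads and the dashed lines a 2-fold difference. Nearly all points lie above the upper dashed line, 124 members have 0 cytoplasmic reads, and the exonic MALAT1 fragment is the point with the most reads in both libraries.

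The pooled ratio of nuclear to cytoplasmic reads was 15.4 (14.8 to 16.0) in non-coding genes, 29.1 (26.03 to 32.5) between genes and 10.8 (10.4 to 11.1) inside protein-coding genes, in counts as deposited. The median ratios of single fragments were 15.3, 8.67 and 11.3, but these follow the number of nuclear reads where the cytoplasmic count is set to the minimum of 3. That was so, or the count was 3 itself, for 86 of the 107 intergenic fragments and 189 of the 289 in non-coding genes, so no order of the classes is read from them. The pooled value in non-coding genes rested on a few abundant fragments. Without the 10 fragments with the most reads it was 26.2, and without the single MALAT1 fragment it was 22.99. Among the members with 10 or more reads in the pair of libraries, 1 had more cytoplasmic than nuclear reads. It lies in MFSD14CP, annotated as a lncRNA (chr9:96891538-96892989, minus strand, wholly exonic), with 22 cytoplasmic, 21 nuclear, 93 polyA+ and 25 polyA- reads. The first 2 values are equal within counting error (ratio 0.955, 0.499 to 1.82), while the polyA+ library stood above the other 3.

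In the nuclear RNA, members were counted more often without a poly(A) tail than with one. Their reads summed to 57816 in the polyA- and 34533 in the polyA+ library. At least 2-fold more polyA- reads were found for 246 members (62.1%), beside 64.3% of all 900 fragments, and at least 2-fold more polyA+ reads for 6 members (1.52%), beside 3.78%. The remaining 144 members were past 2-fold in neither direction. All 246 polyA- members were also among those called nuclear. The polyA- call was made for 188 fragments in non-coding genes (65.1%, 59.4 to 70.3) and for 58 intergenic fragments (54.2%, 44.8 to 63.3). Intergenic fragments again had fewer reads to be called from. Their medians were 7 polyA+ and 30 polyA- reads, against 13 and 61 in non-coding genes. By the exact binomial test, 267 members were higher in polyA- RNA, beside 68% of all fragments, and 16 in polyA+ RNA, beside 6.89%. All 16 were in non-coding genes. No intergenic fragment was higher in polyA+ RNA in that test, at an adjusted or at an unadjusted p under 0.05. The polyA- count moved with the scaling, to 179 at equal sums and to 85 at an equal median ratio, where 90 members became polyA+ calls. The pooled ratio of polyA- to polyA+ reads was 1.57 (1.54 to 1.59) in non-coding genes and 2.54 (2.44 to 2.63) between genes. Over all fragments it was 1.83, which is the factor that equal sums divide by. The pooled value in non-coding genes rested on abundant fragments, since it was 2.73 without the 10 with the most reads and 2.08 without MALAT1. The medians of single fragments were 3.33 in non-coding genes, 2.44 between genes and 3.20 over all fragments. They depend on depth where the polyA+ count is set to the minimum of 3, so no order of the classes is read from them.

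**Figure D2:**
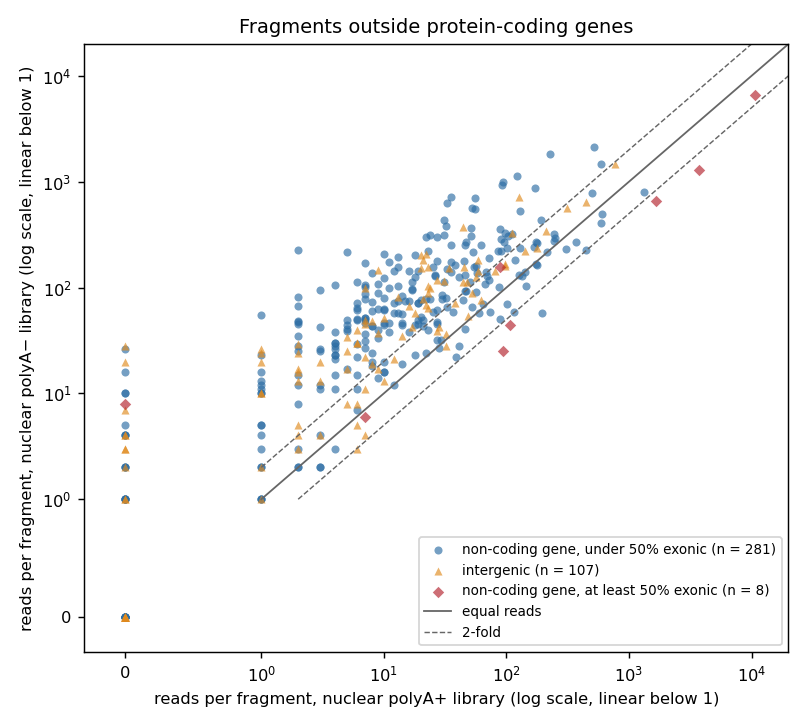
Reads of each of the 396 members in the nuclear polyA+ library (x axis) and the nuclear polyA- library (y axis), both on a log scale that is linear below 1, with 1 point per fragment, coloured by class. The solid line marks equal reads and the dashed lines a 2-fold difference. Most points lie above the solid line, and 6 of the 8 exonic members lie below it.

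Exonic members leaned to the polyA+ library. Only 8 of the 289 fragments in non-coding genes had at least 50% of their length in exons, and 242 had no exonic base. Of the 8, 6 had more polyA+ than polyA- reads and 4 passed 2-fold, whereas 1 of the 281 others passed 2-fold in that direction. The median ratio of polyA- to polyA+ reads was 0.511 over the 8, 3.43 over the fragments with no exonic base and 3.98 over the 39 fragments with some exonic bases but under 50%. Exonic members held 16.8% of the nuclear reads of the class, 46.0% of its cytoplasmic and 53.7% of its polyA+ reads. Much of this was the MALAT1 fragment. With it left out of the class, the other 7 held 7.54% of the nuclear, 10.3% of the cytoplasmic, 28.7% of the polyA+ and 5.29% of the polyA- reads, a choice made after the values were seen. These are descriptions of 8 fragments in 6 genes, and no test was made.

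MALAT1, an abundant lncRNA of nuclear speckles whose mature end is closed by a triple helix in place of a poly(A) tail, held the densest member (chr11:65499308-65501247, plus strand, wholly exonic). It had 1228 cytoplasmic, 4778 nuclear, 10766 polyA+ and 6584 polyA- reads, which is 2463 nuclear reads per kb. The polyA+ library was the highest and the cytoplasmic library the lowest. The ratio of nuclear to cytoplasmic reads was 3.89 (3.65 to 4.15) and that of polyA+ to polyA- reads was 1.64 (1.59 to 1.69). This 1 fragment supplied 39.8% of all cytoplasmic reads on members in non-coding genes. The antisense gene TALAM1 covers the same bases, and the strand setting of the counting is not given in the sources used here, so reads of either strand cannot be told apart.

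A pair of fragments on chromosome X, in exons of a lncRNA gene on the minus strand, came next in polyA+ reads. The fragment chrX:73821090-73827426 had 129 cytoplasmic, 2401 nuclear, 3739 polyA+ and 1293 polyA- reads, with a ratio of polyA+ to polyA- reads of 2.89 (2.71 to 3.08). The fragment chrX:73843371-73849814 had 28, 602, 1671 and 662 reads in the same order, with a ratio of 2.52 (2.31 to 2.77). The first is also covered by a gene on the opposite strand. In both, polyA+ reads were the most numerous and cytoplasmic reads the fewest. At 379 nuclear reads per kb, beside 93.4 in the other, the first was also the second densest member in non-coding genes.

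Other members that leaned to the polyA+ library had far fewer reads. A fragment of LINC00342 (chr2:95819184-95821210, minus strand, 26.7% exonic) had 12 cytoplasmic, 51 nuclear, 195 polyA+ and 57 polyA- reads. A fragment of MIR4435-2HG, a microRNA host gene (chr2:111211292-111213641, minus strand, 50.4% exonic, also covered by ENSG00000271590 on that strand), had 5, 54, 107 and 44 reads. In both, the polyA+ library was the highest and the cytoplasmic library the lowest. With 1 fragment on a contig of chromosome 1, of 6 polyA+ and 3 polyA- reads, too few to differ beyond counting error, these complete the 6 members past 2-fold. Just under that ratio, at 1.99 (1.69 to 2.35), was the fragment at the 3′ end of LINC01033 (chr5:54410549-54416229, plus strand, 3.82% exonic), with 45 cytoplasmic, 292 nuclear, 448 polyA+ and 225 polyA- reads. A dense fragment on chromosome 19 (chr19:28607199-28610679) had 218 cytoplasmic, 1069 nuclear, 1316 polyA+ and 800 polyA- reads. It lies in 4 lncRNA genes on both strands, so its reads have no single host.

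At the other end of the range, several intronic members were almost absent from polyA+ RNA. The highest ratio of polyA- to polyA+ reads was in ENSG00000288714, a lncRNA gene (chr6:140332570-140337200, plus strand), with 3 cytoplasmic, 246 nuclear, 2 polyA+ and 224 polyA- reads. Against the minimum of 3 reads this is a ratio of 74.7, although the other fragments of the gene gave ratios down to 2.47. An intronic fragment of MGC4859 (chr7:10676644-10679756, minus strand) had 1, 223, 5 and 217 reads, with a ratio of 43.4 (18.3 to 135). Among the 10 highest ratios, all were in introns or nearly so, with no exonic base in 7 and under 10% of the length in exons in the others.

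The 289 fragments in non-coding genes fell in 73 host genes. lncRNA genes were the host of 283, and transcribed pseudogenes of 6. The fragments were gathered in few genes, since the 25 hosts with 4 or more held 210 of them (72.7%), while 26 hosts had 1. Of the hosts, 26 had an identifier and no symbol in the annotation. The 15 hosts with the most fragments held 166 fragments and 58.1% of the nuclear reads of the class. Of 59 hosts found in the input RNA table, 55 had at least 1 FPKM, with a median of 5.07 over the 59.

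LINC02476, a lncRNA gene of 412 kb on the minus strand of chromosome 7, carried the most nuclear reads. Its 12 fragments span chr7:119628795-119906954, and 11 have no exonic base. They had 387 cytoplasmic, 10524 nuclear, 1921 polyA+ and 10071 polyA- reads in sum, with nuclear and polyA- reads nearly equal and cytoplasmic reads lowest. This was 22.1% of the nuclear reads in the class. Single fragments ranged from 57.5 to 194 nuclear reads per kb, and all 12 were called both nuclear and polyA-. The pooled ratios were 27.2 (24.6 to 30.2) for nuclear to cytoplasmic and 5.24 (4.99 to 5.51) for polyA- to polyA+. In the input RNA the gene had 12.3 FPKM (9.97 to 14.6, the bounds deposited by the authors). Counts differed between single members on the sides of its annotated start. The first fragment inside the gene (chr7:119896627-119906954) had 78 cytoplasmic, 1993 nuclear, 226 polyA+ and 1832 polyA- reads. An intergenic member 8.71 kb upstream of the gene (chr7:119916106-119918581) had no read in any of the 4 libraries. It was among 11 members without a read in any library, and the part of the mapping quality filter in its zeros was not tested.

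CCDC26, a lncRNA gene of 1050 kb on chromosome 8, had the most fragments, 22 over 315 kb. They summed to 64 cytoplasmic, 4872 nuclear, 1053 polyA+ and 4998 polyA- reads, and every one of them was called nuclear. The pooled ratio of nuclear to cytoplasmic reads was 76.1 (59.5 to 99.0). Density ranged from 20.8 to 104 nuclear reads per kb. The polyA- call was made for 20 of the 22, and the fragment chr8:129298804-129303783, 27.5% exonic, was the one nearest to equality, with 244 polyA+ and 277 polyA- reads. MGC4859, a lncRNA gene on chromosome 7 with 11 fragments free of exonic bases, summed to 74 cytoplasmic, 2796 nuclear, 306 polyA+ and 2746 polyA- reads. All 11 were called nuclear and polyA-, with a pooled ratio of polyA- to polyA+ reads of 8.97 (7.97 to 10.1).

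Hosts with many fragments included some of low read density. LINC00534 had 17 fragments with 17 cytoplasmic, 906 nuclear, 423 polyA+ and 925 polyA- reads, or 11.1 nuclear reads per kb. FLJ46284 had 15 fragments with 0, 50, 8 and 37 reads, or 1.19 nuclear reads per kb, and 4 of the 15 were called nuclear. In the input RNA the genes were at similar levels, with 7.46 FPKM (5.56 to 9.37) for LINC00534 and 9.91 FPKM (7.78 to 12.03) for FLJ46284. All 17 fragments of the first and 11 of the second are also covered by a gene on the opposite strand. LINC02109 had 0.451 FPKM (0 to 1.20) and 75.6 nuclear reads per kb over 4 fragments. Over the 59 hosts with an input level, Spearman's rho between FPKM and nuclear reads per kb was 0.28, as a description of genes that share their libraries. The measures differ, since FPKM is scaled to the annotated transcript and comes from another RNA preparation. Exons made up 1.24% of the fragment bases of LINC00534, 0.134% of FLJ46284 and 0% of LINC02109.

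The ratio of polyA- to polyA+ reads differed widely between hosts. ENSG00000260289, with 13 intronic fragments on chromosome 16, had 90 cytoplasmic, 1433 nuclear, 803 polyA+ and 1631 polyA- reads, a polyA- to polyA+ ratio of 2.03 (1.87 to 2.21). ENSG00000286251, with 14 intronic fragments on chromosome 4, had 15, 634, 79 and 677 reads and the higher ratio of 8.57 (6.78 to 10.96). CAVIN2-AS1, antisense to the caveola gene CAVIN2, had 3, 386, 29 and 443 reads on 7 fragments, with a ratio of 15.3 (10.5 to 23.1).

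LINC01033 and LINC01287 had the lowest ratios of polyA- to polyA+ reads among the 15 hosts, where the other 13 ranged from 1.76 to 15.3. LINC01033 had 103 cytoplasmic, 1313 nuclear, 1294 polyA+ and 1281 polyA- reads on 6 fragments, a polyA- to polyA+ ratio of 0.990 (0.916 to 1.07). LINC01287 had 106, 596, 806 and 595 reads on 6 fragments, a ratio of 0.738 (0.663 to 0.822), and also the lowest nuclear to cytoplasmic ratio of the 15, at 5.62 (4.57 to 6.98). In LINC01287 the fragment nearest the start, 37.4% exonic, supplied 440 of the nuclear and 596 of the polyA+ reads.

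A list of 35 well-known lncRNAs was looked up, of which 9 covered a member. Besides the genes above these included CYTOR, FTX and PVT1. CYTOR, cytoskeleton regulator RNA, had 7 fragments with 19 cytoplasmic, 551 nuclear, 126 polyA+ and 689 polyA- reads, and all 7 were called nuclear and polyA-. MIR4435-2HG is a near-copy of CYTOR, so reads that fit both could be assigned to either or lost to the mapping quality filter, and the counts of both genes are uncertain. It had 8 fragments with 22, 434, 256 and 451 reads. FTX, a lncRNA of the X inactivation centre, had 2 fragments. The larger one (chrX:74254028-74258114) had 8 cytoplasmic, 273 nuclear, 51 polyA+ and 310 polyA- reads. PVT1, the neighbour of MYC, had 1 intronic fragment with 4, 30, 6 and 29 reads. KCNQ1OT1, which lies inside the coding gene KCNQ1, had no member by the rule.

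Position along the gene was compared within the 15 hosts with the most fragments. Spearman's rho between distance from the annotated 5′ end and nuclear reads per kb was below 0 in 12 of them and above 0 in 3. It was -0.51 over the 22 fragments of CCDC26 and -0.94 over the 6 fragments of LINC01287, at 58.6 kb the shortest gene of the 15, whose density fell from 65.2 reads per kb near the start to 5.18 at 38.6 kb. Values lay near 0 in some long genes, with -0.17 over 12 fragments of LINC02476, -0.02 over 11 of MGC4859 and -0.07 over 7 of ENSG00000288714. In LINC02476, 193 reads per kb near the start gave way to 57.5 at 93.5 kb and to 194 at 113 kb. Among the 12 below 0 were LINC00534, with all 17 fragments also covered by a gene on the opposite strand, and FLJ46284, with 50 nuclear reads in sum. In CCDC26 the first fragment lay 124 kb from the annotated 5′ end. Fragments of 1 gene share its transcription and library, so the rho values describe the genes and carry no test.

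**Figure D3:**
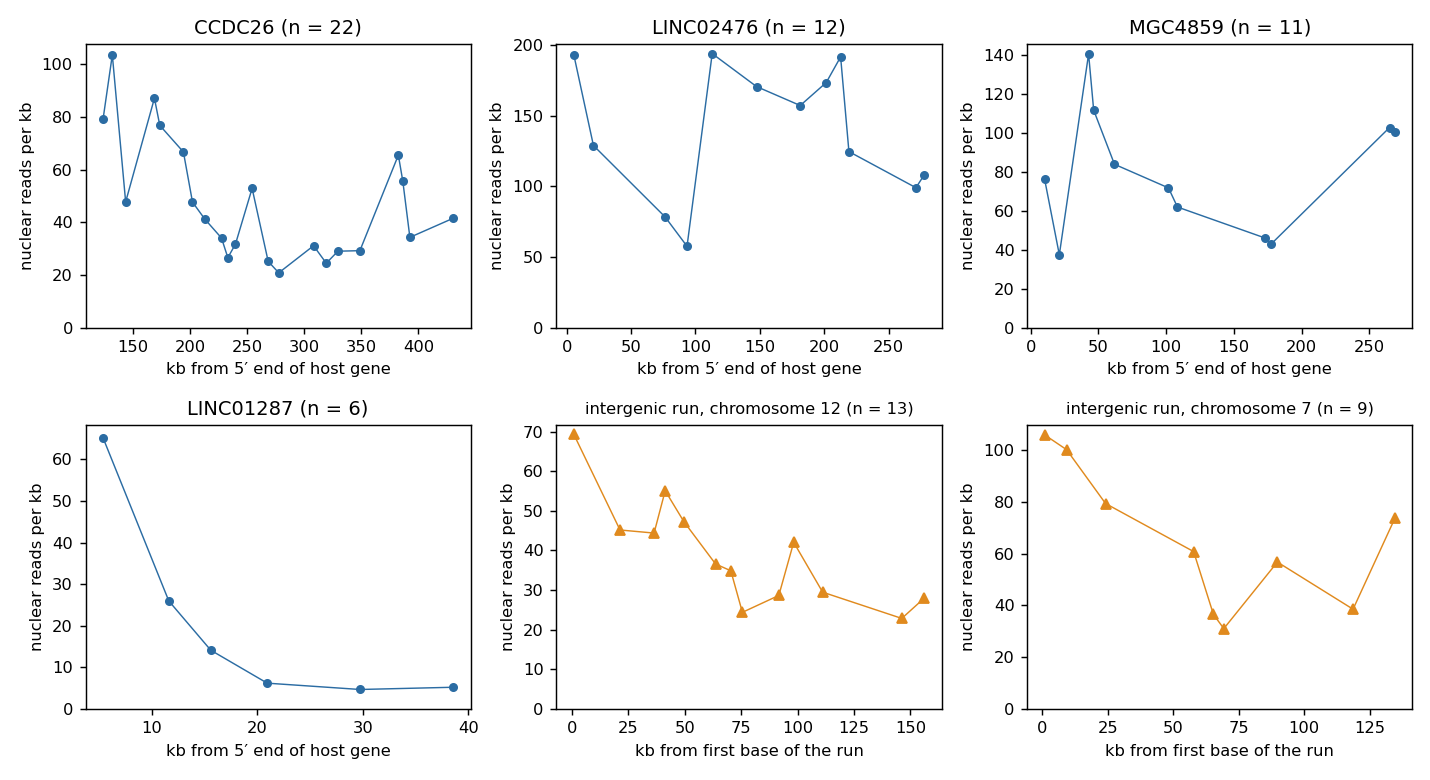
Nuclear reads per kb (y axis, linear from 0) of fragments against kb from the 5′ end of the host gene for 4 lncRNA genes (blue), and against kb from the first base for the longest intergenic runs on chromosomes 12 and 7 (orange). Each point is 1 fragment at its midpoint and lines join neighbours. Density falls over the first 30 kb of LINC01287 and, with interruptions, in CCDC26 and in the chromosome 12 run, while LINC02476 has a second maximum at 113 kb.

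Intergenic members were mostly far from coding genes but not from annotated ones. The median distance was 33.6 kb to the nearest gene of any type and 244 kb to the nearest protein-coding gene. Within 10 kb of an annotated gene lay 22 of the 107, and within 10 kb of a protein-coding gene 7, while 81 were over 100 kb from a coding gene. The nearest gene was a lncRNA gene for 50, a processed pseudogene for 16 and a protein-coding gene for 12. With respect to that gene, 57 fragments were downstream, 45 upstream and 3 partly inside, and 2 lay on contigs that carry no annotated gene. Read density did not follow distance. Median nuclear reads per kb were 18.4 for the 22 within 10 kb, 9.43 for the 41 between 10 and 50 kb and 21.0 for the 42 beyond, and Spearman's rho between distance and density was -0.06 over 105 fragments.

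**Figure D4:**
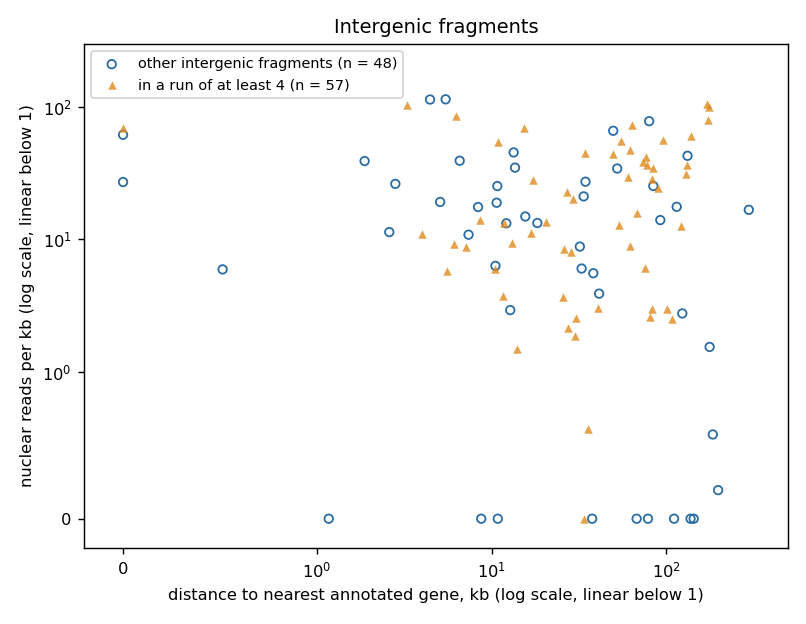
Nuclear reads per kb (y axis) against distance to the nearest annotated gene in kb (x axis) for the 105 intergenic members on sequences that carry genes, both on a log scale that is linear below 1. Filled triangles are the 57 fragments in runs of at least 4 and open circles the 48 others. Fragments of high and of low density occur both within 10 kb of a gene and beyond 100 kb.

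Intergenic members lay in clusters. Runs of at least 4 fragments with gaps under 100 kb numbered 9, and they held 57 of the 107 fragments and 6809 of the 9558 intergenic nuclear reads (71.2%). The longest run, chr12:91696160-91853849, had 13 fragments over 158 kb, with BTG1, an antiproliferation gene, as the nearest coding gene at 286 kb. It had 49 cytoplasmic, 1774 nuclear, 566 polyA+ and 1840 polyA- reads. All 13 fragments were called nuclear and 11 polyA-, with densities from 22.8 to 69.3 nuclear reads per kb. Density fell with increasing coordinate (Spearman's rho -0.84 over 13 fragments), and so did the ratio of polyA- to polyA+ reads (-0.72). The first fragment had 116 nuclear, 23 polyA+ and 156 polyA- reads, and the last had 92, 62 and 76.

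The run with the most reads, chr7:145851272-145986759, lay upstream of CNTNAP2, a neurexin family gene, with a gap of 129 kb to it. Its 9 fragments had 100 cytoplasmic, 3673 nuclear, 1354 polyA+ and 3675 polyA- reads, and densities from 31.0 to 106 nuclear reads per kb. The ratio of nuclear to cytoplasmic reads was 36.7 (30.1 to 45.3) and that of polyA- to polyA+ reads 2.71 (2.55 to 2.89). All 9 were called nuclear and 7 polyA-. One of them, chr7:145928216-145953836, was the longest fragment of the whole list at 25621 bp and had 34 cytoplasmic, 1454 nuclear, 766 polyA+ and 1454 polyA- reads. Here too the first fragments in coordinate order were the densest, at 106 and 100 reads per kb (rho -0.62 over 9 fragments).

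A shorter run, chr6:27896680-27931253, lay among histone and olfactory receptor genes, 2.79 kb from H2BC17, which encodes a histone H2B. Its 4 fragments had 11 cytoplasmic, 779 nuclear, 407 polyA+ and 787 polyA- reads and 75.7 nuclear reads per kb, the highest density of the 9 runs. Their pooled polyA- to polyA+ ratio of 1.93 (1.71 to 2.18) was lower than in the runs on chromosomes 12 and 7, and 2 of the 4 passed 2-fold. The other 6 runs were sparse, with 1.98 to 15.7 nuclear reads per kb. The sparsest, chrX:121311944-121404215, had 0 cytoplasmic, 33 nuclear, 3 polyA+ and 24 polyA- reads on 6 fragments, and 4 of the 6 were called nuclear.

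Several runs lay beside a lncRNA gene that hosted members itself. The chromosome 12 run began 61.9 kb from ENSG00000289605, on the minus strand, whose 4 fragments had 55.2 nuclear reads per kb beside 37.9 in the run. The run chr6:147986187-148052046 enclosed ENSG00000287976, with 9.09 reads per kb in the gene and 7.07 in the run. The run chr13:69333868-69399594 began 11.7 kb downstream of LINC00383, with 17.3 reads per kb in the gene and 15.7 in the run. The run chr4:126840044-126906923 lay 105 kb from ENSG00000286251, with 19.99 reads per kb in the gene and 7.04 in the run. A sparser run on chromosome 12, chr12:23285186-23361546, lay 33.7 kb from LINC02566, with 2.47 reads per kb in the gene and 2.39 in the run. For the other runs, the host of the nearest member in a non-coding gene lay at least 2092 kb away. Whether a run and its neighbour belong to 1 transcript was not tested.

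Outside the runs, the densest intergenic members were a fragment downstream of EPGN, a growth factor gene of the EGF family, and a fragment on chromosome 13. The fragment at EPGN (chr4:74322235-74324033, 5.45 kb from the gene) had 4 cytoplasmic, 206 nuclear, 21 polyA+ and 182 polyA- reads, a polyA- to polyA+ ratio of 8.67 (5.50 to 14.3). A second member overlapped the gene's end and had 2, 85, 13 and 81 reads. The fragment on chromosome 13 (chr13:18182899-18188349) had 71 cytoplasmic, 622 nuclear, 445 polyA+ and 647 polyA- reads. With 114 nuclear reads per kb it was as dense as the first, but its ratios of 8.76 (6.84 to 11.4) for nuclear to cytoplasmic and 1.45 (1.29 to 1.64) for polyA- to polyA+ were lower. The member farthest from any gene, 297 kb from a 5S ribosomal RNA pseudogene (chr9:31996091-31997046), had 0, 16, 10 and 13 reads. Next in distance were 3 fragments over 176 kb from MIR3672 on chromosome X, with 4, 1 and 1 nuclear reads.

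The older annotation that the authors used would have drawn the classes differently. Of the 289 fragments in non-coding genes, 77 did not lie in a gene of GENCODE 26, and under its gene spans 190 of the 900 fragments were intergenic in place of 107. Those 77 had a median of 34.3 nuclear reads per kb, beside 29.2 for the 212 in a GENCODE 26 gene and 14.0 for intergenic members. They were called nuclear in 73 cases (94.8%), beside 86.8% of the 212 and 88.4% of all 900 fragments, and polyA- in 60 (77.9%), beside 60.4% and 64.3%. No test was made of these differences.

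Base composition of the members on the host strand leaned to A and G. It could be read for 242 fragments whose hosts lie on 1 strand. Their median G+A share was 52.7% and that of flanks of the same length 50.1%, with the fragment above its flanks in 192 (79.3%), beside 76.5% of the 732 fragments of the whole list for which a strand was known. The median for A was 32.1% against 30.5%, that for G 19.9% against 19.3%, and that for T 28.7% against 30.7%. The motif GGAGGA, read on both strands, occurred in 69.4% of members and 68.9% of their flanks. GAGAGAGA occurred in 26.8% and 31.2%, and GGAAGGAA, which shares letters with it, in 22.2% and 22.7%. A match is only a string of letters, and neither composition nor motifs were tested. The G/A runs shown in capitals at the outset are therefore examples of what such windows look like, and nothing particular to the members is read from them.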

How the data were processed

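RNA-seq of 4 fractions of K562 cells (cytoplasmic, nuclear, nuclear polyA+ and nuclear polyA-) was analysed, with 1 library each, together with 1 library of RIP-seq input RNA. RNA was depleted of rRNA, and libraries were paired-end. The authors trimmed reads with TrimGalore, aligned them by STAR against GRCh38 and GENCODE 26, dropped duplicates and kept alignments whose mapping quality was at least 20. The authors deposited raw read counts from featureCounts, 1 per fragment and library, and FPKM values from cuffdiff, 1 per gene of the input RNA. Removal of multi-mapping reads lowers counts in repeated sequence, and the strand setting of the counting is not given in the sources used here. The other samples of the series were not analysed here.

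Fragments were read as 1-based and placed on GENCODE 44 with a 50% overlap rule, and the host was the gene with the largest overlap. Calls used a ratio of 2 with a minimum of 3 reads. Between 7929 and 106051 reads per library lay on the 900 fragments, which sets the precision, and no library totals were at hand. Ratios have exact Clopper-Pearson and shares have Wilson 95% intervals. The intervals of ratios cover counting error only, and reads are not independent molecules. Those of shares take fragments as independent, which fragments of 1 gene are not. The exact binomial test was tested on simulated data. The lists of named members and genes were chosen with earlier results of these data known, while membership itself followed position alone. Named were the 15 hosts with the most members, a list of 35 lncRNAs, the 10 densest members in non-coding genes and the 10 densest intergenic ones, the 5 intergenic members farthest from and the 5 nearest to a gene, those with more cytoplasmic than nuclear reads and at least 10 in sum, the 10 highest and 10 lowest polyA ratios among members with 20 or more polyA reads, and runs of 4 or more intergenic members. LINC02109, the 8 exonic members and the empty fragment upstream of LINC02476 were chosen after their values were seen. Alternatives comprised scaling, fold, floor, overlap, distance and annotation, and the leaving out of abundant fragments. Some sequence windows are not reported here. Scripts ran in Python 3.11.15 with pandas 2.3.3, matplotlib 3.10.9, pysam 0.24.0, scipy 1.17.1 and numpy 2.4.6.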

Additional observations from a re-analysis of the deposited data

How the results depend on the processing

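Each fraction had 1 library, counts had no library totals, and a difference in sequencing depth between libraries cannot be told apart from a difference between fractions. Scaling to equal sums over all fragments, or to an equal median ratio, sets the average difference to none by construction, whether it came from depth or from the fractions. The 342 nuclear calls became 103 and 43, the 246 polyA- calls became 85 at an equal median ratio, and the 6 polyA+ calls became 26 and 90. The polyA+ calls were 33 for any excess of reads, 0 at 4-fold and 16 by the exact binomial test. The other alternatives moved no count of calls by more than 1.5 times. Under GENCODE 26 gene spans 190 fragments were intergenic. Intergenic members near a gene numbered 11 within 5 kb, 63 within 50 kb and 7 within 10 kb of a protein-coding gene, in place of 22.

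Pooled ratios were not rescaled. The factors for equal sums were 13.3 for nuclear to cytoplasmic and 1.83 for polyA- to polyA+ reads, and the latter exceeds the pooled 1.57 in non-coding genes, so the direction of that ratio rests on the counts being used as deposited. Nuclear to cytoplasmic reads in non-coding genes gave 26.2 without the 10 fragments with the most reads, 13.7 without LINC02476 and 22.99 without MALAT1, an alternative chosen after seeing the data. Between genes they gave 25.1 without chromosome 7 and 8.67 as the median of single ratios, where 86 of 107 fragments had 3 or fewer cytoplasmic reads and so the minimum as divisor. PolyA- to polyA+ reads in non-coding genes gave 2.73, 1.32 and 2.08 in the same order, and 3.33 as the median. Between genes they gave 3.13 without the 10 fragments with the most reads, 2.41 without chromosome 7 and 2.44 as the median. The cause was not tested. No paired analysis was possible because each fraction had 1 library and the samples with shared replicate numbers were not analysed here.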

Other observations

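Of the 396 members, 11 had no read in any of the 4 libraries and 18 had none in the nuclear library. The 18 comprised 8 fragments in non-coding genes, among them both fragments of LINC01203 and 2 of FLJ46284, and 10 intergenic ones, among them 4 on chromosome 16. The part of the mapping quality filter in these zeros was not tested.

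Over the 396 members, nuclear reads per kb followed polyA- reads per kb more closely (Spearman's rho 0.98) than polyA+ reads per kb (0.73). The polyA fractions were made from nuclear RNA, so these libraries share their source, and the values are descriptions. PolyA+ reads were also placed differently along CYTOR, where rho between distance from the 5′ end and polyA+ reads per kb was 0.89 over 7 fragments, beside 0.11 for nuclear reads per kb, and along MGC4859, with 0.55 and -0.02 over 11 fragments. LINC01287 went the other way, with -0.83 and -0.94 over 6 fragments. For polyA+ reads these genes had the highest and lowest values of the 15 hosts with the most fragments, and the others lay between -0.36 and 0.35. The counts of CYTOR are uncertain, as given above.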
